A study of Mus musculus with 24 samples.

Results

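Imprinted genes are transcribed mainly from the copy inherited from a single parent, in some tissues or in all. The genes described here are 42 imprinted mouse genes taken by name, and a member was measured where the array annotation listed a probe set, a group of short probes for a transcript, for that symbol alone. Such a probe set was found for 40 of the 42 members, among 18193 genes on the array. By the allele that is known to be expressed, 21 of 22 paternally expressed members and 18 of 19 maternally expressed members were measured, and the last was Gnas, whose transcripts differ in parental origin. The probe set of H19 is shared with the microRNA gene inside it and was skipped by this rule. Zrsr1 had no probe set listed for it alone and is not analysed here.

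The arrays follow mouse cells of the C57BL/6 strain from pluripotency towards germ cells, with 24 samples in 12 groups of 2. On unamplified arrays the groups were embryonic stem cells (ESCs) kept feeder free in 2i and LIF (a pair of kinase inhibitors with leukaemia inhibitory factor), day 1, day 2 and day 3 of the induction of EpiLCs (epiblast-like cells) out of those ESCs, epiblast stem cells (EpiSCs) from the embryonic day 5.75 epiblast, and PGCLCs (cells like primordial germ cells) made from day 2 EpiLCs. On amplified arrays, for which cDNA from 5 ng of RNA or 500 cells went through 22 cycles of PCR, the groups were ESCs, day 2 EpiLCs, EpiSCs and PGCLCs again, with epiblast of embryonic day 5.5 to 6.0 and primordial germ cells (PGCs) of embryonic day 9.5 from embryos. The labels name no allele or deletion for any group and do not say how PGCLCs or PGCs were isolated, although the design text mentions fluorescent reporter transgenes. Replicates are called biological, without a statement on whether they came from separate cultures or litters, so the p-values below measure the spread between these samples alone.

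Imprints are DNA methylation marks set in the egg or sperm of the parents and kept through the early embryo while most other methylation is lost. Each mark lies at a control region that silences or allows the genes of a cluster, often through a noncoding RNA or the insulator protein CTCF. Many imprinted genes act on growth of the fetus and placenta, and primordial germ cells erase the marks before new ones are laid down according to the sex of the embryo. The arrays sum the RNA of both alleles, so none of the values below is a measurement of imprinting itself.

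A sequence linked to the upkeep of imprints was looked for at the starts of the members. ZFP57, a zinc finger protein that keeps imprints in the early embryo, binds the methylated form of the hexamer TGCCGC, read on the opposite strand as GCGGCA. In the 250 bases before each RefSeq gene start (build GRCm38.p6), this hexamer was found on either strand in 2850 of 32851 windows, or 8.68%. Of 56 windows of 37 members with a listed start, 7 held it, or 12.5%, and these belonged to Calcr, Meg3, Mest, Nap1l5, Plagl1 and Zim1. Of these 6, the windows of the 3 that were called between ESCs and day 2 EpiLCs on unamplified arrays are printed with the hexamer in capitals, read along the strand of the gene: Plagl1 at chr10:13090582-13090831 on the plus strand, Mest at chr6:30737800-30738049 on the plus strand with 2 matches, and Nap1l5 at chr6:58907127-58907376 on the minus strand. The Mest windows with a match overlap and hold the same 2 hexamers, so this site is counted more than once in the share of members. The pair CG, which the hexamer contains, had a median count of 10 in member windows and 6 in all windows. Whether the shares of 12.5% and 8.68% differ was not tested. A match describes the letters only and is no evidence of binding.
Plagl1: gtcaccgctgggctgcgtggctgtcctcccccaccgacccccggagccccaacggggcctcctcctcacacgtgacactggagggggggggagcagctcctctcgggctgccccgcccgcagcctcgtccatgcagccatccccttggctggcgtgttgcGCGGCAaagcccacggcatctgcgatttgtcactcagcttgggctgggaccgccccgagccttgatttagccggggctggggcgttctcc
Mest: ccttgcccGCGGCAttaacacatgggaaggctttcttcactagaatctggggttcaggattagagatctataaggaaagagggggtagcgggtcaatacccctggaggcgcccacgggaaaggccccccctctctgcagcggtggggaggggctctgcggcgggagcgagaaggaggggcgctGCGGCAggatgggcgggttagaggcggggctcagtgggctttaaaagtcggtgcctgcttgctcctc
Nap1l5: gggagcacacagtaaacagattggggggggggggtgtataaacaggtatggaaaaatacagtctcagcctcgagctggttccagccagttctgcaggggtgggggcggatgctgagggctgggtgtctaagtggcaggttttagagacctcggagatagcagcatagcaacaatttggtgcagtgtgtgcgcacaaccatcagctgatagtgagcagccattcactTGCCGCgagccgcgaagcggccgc

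Several members are hosts of microRNAs. Mirg, a maternally expressed noncoding RNA of the Dlk1-Meg3 cluster, spans 10 hairpins that give 19 mature microRNAs with 18 different seeds in the RefSeq table, and Mest spans 1 hairpin that gives 2. The mature sequences are printed with the seed, bases 2 to 8, in capitals: the pair from Mirg that shares a seed, at chr12:109735669-109735692 and chr12:109739132-109739152, and the pair from Mest, at chr6:30741314-30741336 and chr6:30741354-30741375, all on the plus strand. The arrays measured the host RNAs and no mature microRNA.
mmu-miR-453: aGGUUGCCucauagugagcuugca
mmu-miR-496a-5p: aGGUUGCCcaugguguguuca
mmu-miR-335-5p: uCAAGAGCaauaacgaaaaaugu
mmu-miR-335-3p: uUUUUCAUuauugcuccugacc

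The deposited values are intensities on a linear scale, 1 per probe set and array, from 1 to 17519 over the whole table. Values under 4.2 were raised to that floor before log2 was taken, and 39 members on unamplified and 37 on amplified arrays passed a filter that asks for at least 2 arrays above a set level, 28.1 and 24. Zim1 did not pass on unamplified arrays, nor Rian, Peg10 and Usp29 on amplified arrays. A gene is called here where limma gave an adjusted p below 0.05 with a log2 difference of 1 or more in size, and "rose" and "fell" are used of called genes only. Differences are log2 ± standard error with 2 arrays in each group, and a fold marked "at least" was taken against the filter level because the lower group lay under it. Over the genes that passed the filter (log2 values), replicates correlated at 0.975 to 0.991 without amplification. With it they correlated at 0.957 to 0.972, apart from amplified EpiSCs at 0.911. Marker sums followed the labels: 12 naive pluripotency markers summed to 32860.0 and 33350.0 in unamplified ESCs and 3350.0 and 3638 in day 2 EpiLCs, and 11 germ cell markers to 16470.0 and 16770.0 in PGCLCs and 2347 and 2540.0 in day 2 EpiLCs.

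Imprinted genes were spread over a wide range of behaviours: 11 of the 40 were called in no comparison and 3 were called in 8. EpiSCs held the highest mean of the 6 unamplified groups for 16 members and PGCLCs for 12, while ESCs held the lowest for 14. On amplified arrays EpiSCs were highest for 22 members and ESCs lowest for 15. Both arrays lay above the filter level for 30 of 40 members in unamplified ESCs and for 37 in unamplified EpiSCs.

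**Figure D1:**
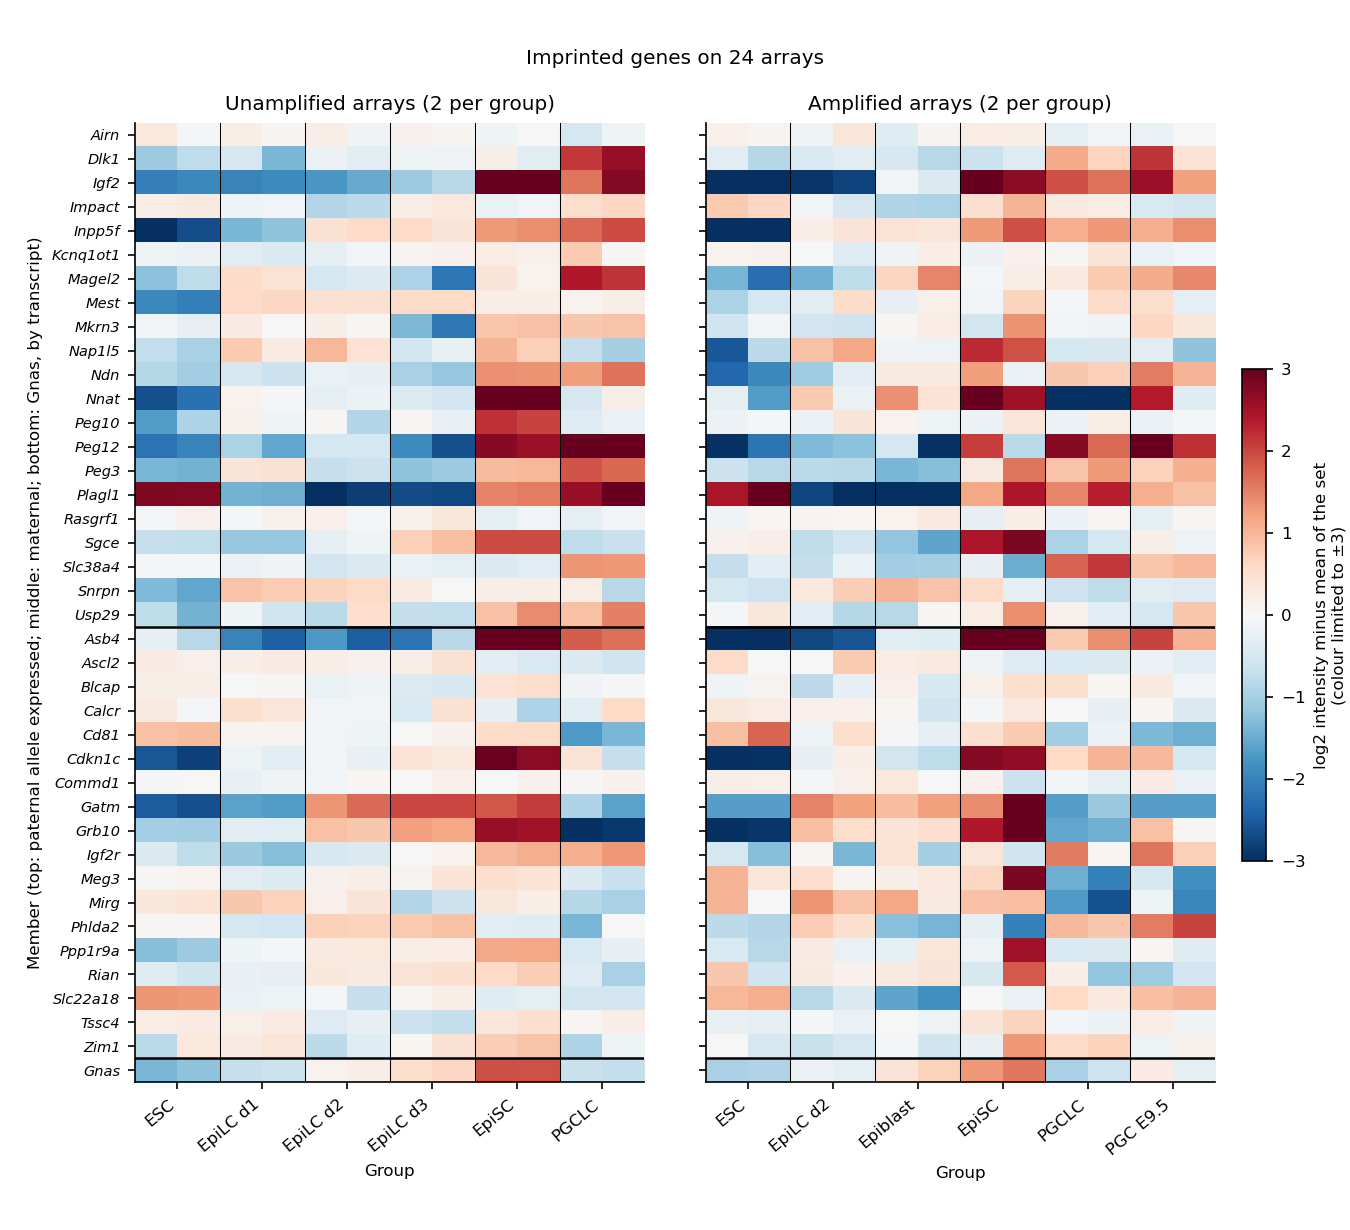
Log2 intensity of the 40 measured members on each array, minus the mean of that member over the 12 arrays of its set (columns are arrays, 2 for each group; red is above and blue below the mean, and the colour stops at 3). The EpiSC columns are red for many members of both parental classes, Plagl1 is blue in EpiLCs and epiblast alone, and Nnat is at its darkest blue in amplified PGCLCs.

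The step from ESCs to day 2 EpiLCs models the passage from the naive state of the early embryo to the epiblast after implantation. On unamplified arrays 16 of 39 tested members were called, against 16.5% of all genes tested. In EpiLCs 11 members rose, against 8.96% of all genes, and 5 fell, against 7.5%, and the median difference was 0.51 for members and 0.01 for all genes. The members that rose were 6 paternally expressed genes, 4 maternally expressed genes and Gnas, and those that fell were 2 and 3. As in every comparison of bulk samples, fewer cells of a type and less RNA per cell cannot be told apart.

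Among growth regulators, Plagl1, a paternally expressed zinc finger transcription factor that restrains the cell cycle, fell furthest. Its intensity was 4303 and 4277 in ESCs and 71.4 and 88.0 in day 2 EpiLCs, a 53.8-fold fall with a log2 difference of -5.76 ± 0.13 and an adjusted p of 1.53e-10. The fall was already deep on the day 1 arrays, at 234 and 225, and the day 3 arrays, at 96.3 and 94.4, stayed near the day 2 level. Grb10, a maternally expressed adaptor that dampens insulin and IGF receptor signalling, went the other way. Its arrays read 512 and 508 in ESCs, 829 and 830 at day 1, 1902 and 1827 at day 2, and 2435 and 2337 at day 3, so the groups followed each other without overlap. The difference between day 2 and ESCs was 1.87 ± 0.17, or 3.66-fold. Cdkn1c, which encodes the CDK inhibitor p57, rose from 58.5 and 49.98 to 325 and 299, by 2.53 ± 0.27. The growth factor gene Igf2 and its clearance receptor gene Igf2r were not called: Igf2 read 32.2 and 34.8 in ESCs and 40.2 and 47.0 in day 2 EpiLCs, and Igf2r 316 and 252 against 306 and 314.

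Genes outside the growth axis gave the other large increases. Inpp5f, which encodes an inositol phosphatase, read 17.7 and 23.4 in ESCs and 204 and 221 in EpiLCs, at least 7.57-fold higher. Gatm, which encodes the first enzyme of creatine synthesis, read 8.70 and 7.85 against 122 and 159, at least 5.01-fold higher. Mest, an alpha/beta hydrolase gene whose promoter is printed above, read 277 and 256 against 1457 and 1446, which is 5.45-fold higher. In each of these 3 genes both EpiLC arrays lay far above both ESC arrays. Nnat, a small membrane protein gene, rose by 2.23 ± 0.20 from 34.2 and 45.1 to 179 and 189, and Snrpn, which encodes a spliceosome protein, by 2.07 ± 0.27 from 49.1 and 41.9 to 198 and 183. Nap1l5, a nucleosome assembly protein relative, read 16.9 and 14.3 against 56.0 and 38.5, at least 1.68-fold higher. Ppp1r9a, which encodes the actin-binding protein neurabin, and Gnas, whose main product couples hormone receptors to adenylyl cyclase, rose by 1.48 ± 0.12 and 1.45 ± 0.07. The mean of the Gnas probe sets differed by 0.62, which is under the fold threshold.

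Besides Plagl1, the members that fell were Slc22a18, Asb4, Impact and Cd81. Slc22a18, an organic cation transporter gene, read 96.4 and 93.5 in ESCs and 37.0 and 23.6 in EpiLCs, a difference of -1.68 ± 0.23. Cd81, a tetraspanin gene, read 5668 and 5967 against 2894 and 2797. Impact, which encodes a regulator of translation under stress, read 938 and 977 against 445 and 474. Impact and Cd81 sat at the fold threshold, with differences of -1.06 ± 0.07 and -1.03 ± 0.09. The call of Impact was lost with the mean of its probe sets (-0.31) and with quantile normalization (-0.98), and that of Cd81 without ESC replicate 2 (-0.99). Asb4 and Peg12 were called on values that lay under the filter level in both groups, at 19.6 and 12.95 against 6.99 and 2.30 for Asb4 and 6.33 and 7.30 against 20.3 and 20.4 for Peg12, so no fold is given for them. Markers of other cells moved in this step as well: 6 of 17 fibroblast markers rose and 1 fell. Of 12 tested visceral endoderm markers 4 rose and 2, Apoe and Ttr, fell, with a median difference of 0.59 against 0.01 for all genes. The sum over 13 was 6847 and 6793 in ESCs and 2136 and 2234 in EpiLCs, so this lower sum is not a fall of most of them. The part of the markers of either kind in these results was not tested.

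On amplified arrays the same step called 7 of 37 members, 5 higher and 2 lower, against 8.51% of all genes (4.27% higher and 4.24% lower). All 7 were called with the same sign on unamplified arrays, where 16 of the 36 members tested on both were called. The 5 that rose were Inpp5f, Grb10, Cdkn1c, Gatm and Nap1l5. Grb10 read 87.3 and 95.5 in ESCs and 1338 and 1031 in EpiLCs, a difference of 3.69 ± 0.36, but its other tested probe set gave -0.12 and was not called. Plagl1 fell by 6.19 ± 0.54, from 3047 and 4741 to 82.1 and 32.8, and Slc22a18 fell by 1.66 ± 0.26, close to its unamplified difference. With the replicate number as a block, Snrpn (1.09, adjusted p 0.0279), Phlda2 (1.46, adjusted p 0.0474) and Cd81 (-1.15, adjusted p 0.029) were called as well.

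The day 3 EpiLCs were set against day 2 to see how the members moved past the stage from which PGCLCs are induced. Of 39 members 7 were called, against 4.26% of all genes, with 2 higher (1.48% of all genes) and 5 lower (2.78%). Impact rose back from 445 and 474 to 942 and 1013, and Sgce, which encodes epsilon-sarcoglycan, rose from 152 and 167 to 300.2 and 339. Impact reached the level of ESCs again, at 938 and 977. Among the genes of the Snrpn-Ndn cluster, Mkrn3, which encodes a RING finger ubiquitin ligase and delays puberty, fell from 78.1 and 70.6 to 27.1 and 15.4, at least 2.65-fold. Mirg fell from 222 and 262 to 109 and 129, by 1.02 ± 0.12, and Nap1l5 fell from 56.0 and 38.5 to 18.9 and 24.3. Peg12 and Magel2 were called lower with both groups under the filter level. Of the 7 calls, those of Impact, Mkrn3 and Peg12 were made in every fit that left out a single array. From day 2 to day 3 the sum of 17 fibroblast markers went from 2645 and 2566 to 4798 and 4954, with 1 called higher. The sum of 13 visceral endoderm markers went from 2136 and 2234 to 4090.0 and 4308. Of these 1, Apoe, was called higher and 1, Gata4, lower, and the median difference of the 12 tested was 0.2. The part of the markers of either kind in these results was not tested.

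**Figure D2:**
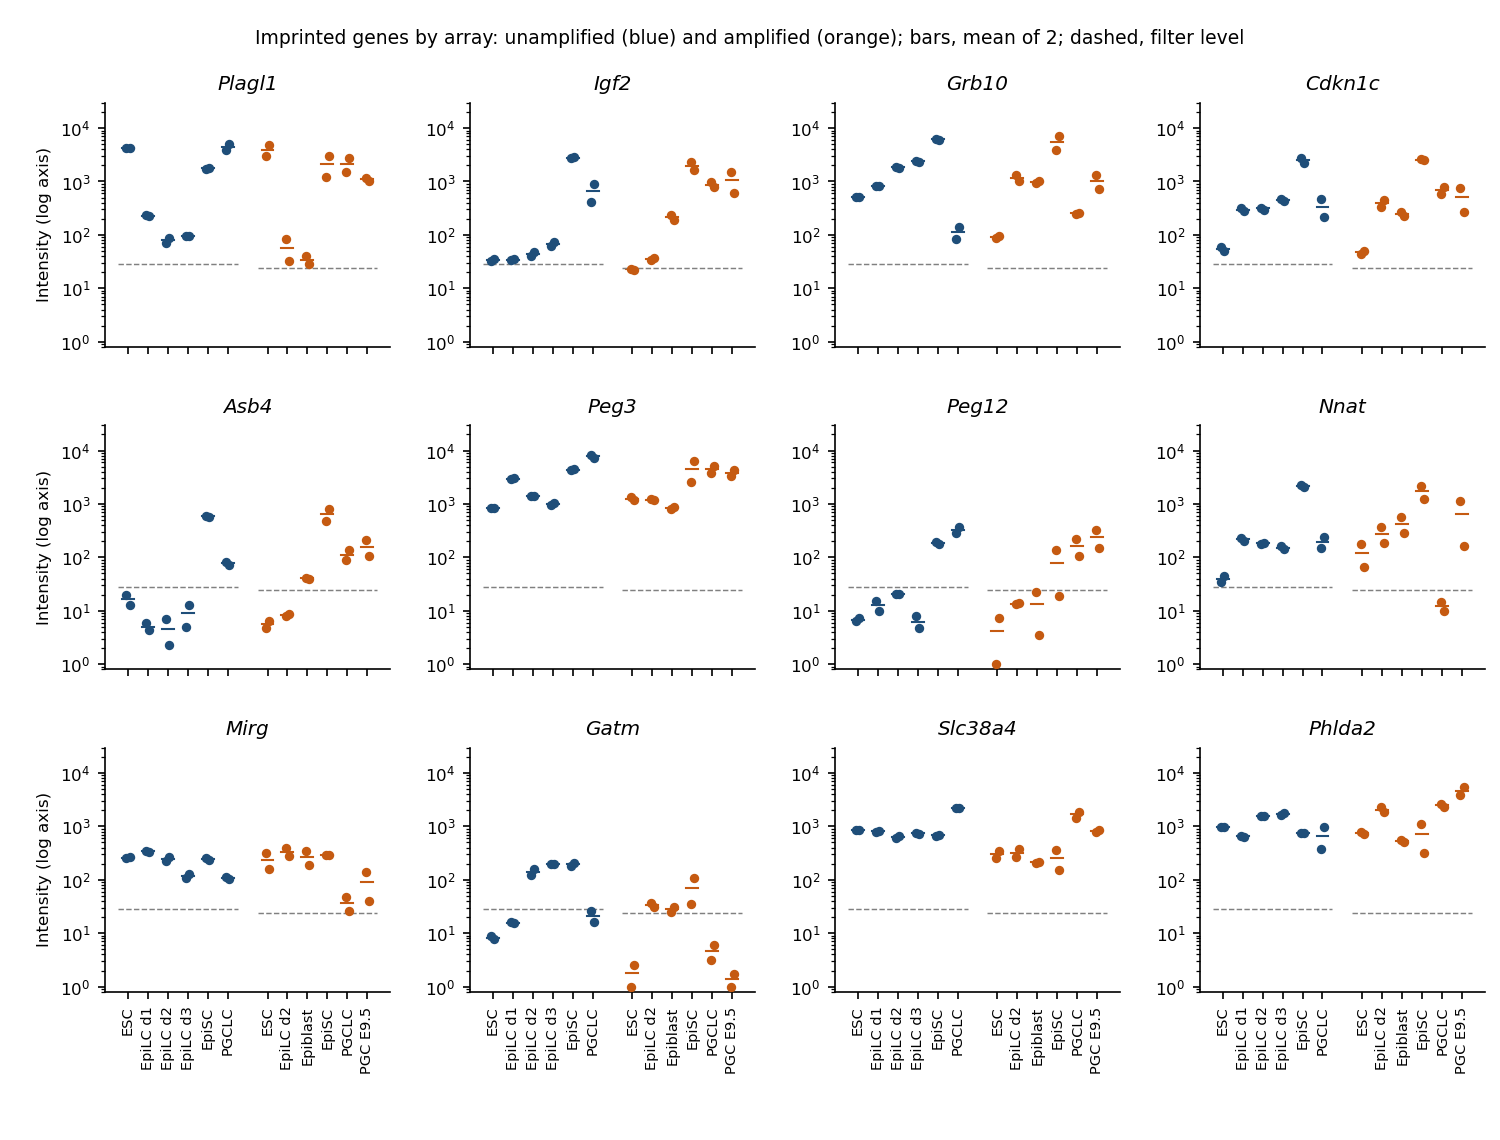
Intensity on a log axis of 12 members by group, with unamplified arrays in blue and amplified arrays in orange (points, arrays; bars, mean of 2; dashed lines, the filter levels of 28.1 and 24). Plagl1 drops from ESCs to EpiLCs and returns in EpiSCs, PGCLCs and PGCs, Igf2 stays near the filter level in ESCs and EpiLCs, and Grb10 falls in PGCLCs on both kinds of array.

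EpiSCs and day 2 EpiLCs are alternative cultures related to the epiblast, and imprinted genes differed between them almost entirely in 1 direction. On unamplified arrays 14 of 39 members were higher in EpiSCs and 1 was lower, against 12.4% and 6.44% of all genes and 18.9% called in all. The median difference was 0.69 for members and 0.02 for all genes. Both parental classes took part, with 9 of 21 paternally expressed and 4 of 17 maternally expressed members higher, together with Gnas. The single member that fell was Phlda2.

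Igf2, the fetal growth factor gene, read 40.2 and 47.0 in day 2 EpiLCs and 2720.0 and 2834 in EpiSCs, 63.7-fold higher with a difference of 6.00 ± 0.28. Igf2r, whose product carries IGF2 to the lysosome, rose in the same arrays from 306 and 314 to 836 and 907, by 1.49 ± 0.12. Grb10 rose from 1902 and 1827 to 6375 and 5963, and Cdkn1c, with 325 and 299 against 2706 and 2265, by 2.99 ± 0.27. Igf2r was not called on amplified arrays, where its 2 probe sets gave -0.35 and 0.54. Plagl1, low in EpiLCs, read 1739 and 1792 in EpiSCs, 22.1-fold higher. Phlda2, which restrains growth of the placenta, fell from 1588 and 1558 to 762 and 750.0, by 1.06 ± 0.31. The call of Phlda2 was lost in each fit without an array of either group and with the array-name code as a block (-0.71, adjusted p 0.0662).

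The neighbours Peg10, Sgce, Asb4 and Ppp1r9a lie in a single imprinted cluster. Asb4, which encodes a subunit of a ubiquitin ligase, read 6.99 and 2.30 in EpiLCs and 602 and 573 in EpiSCs, at least 20.9-fold higher. Sgce read 152 and 167 against 704 and 711, which is 4.43-fold higher. Peg10, a retrotransposon-derived gene needed in the placenta, read 13.7 and 7.27 against 60.6 and 54.5, at least 2.05-fold higher. In all 3 both EpiSC arrays were higher, and these genes differ in the parental allele they use. Ppp1r9a read 176 and 183 against 324 and 330, a difference under the fold threshold, and Calcr, the calcitonin receptor gene of the same cluster, stayed near the filter level in every unamplified group, between 15.8 and 44.9.

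Of the other clusters, Peg3, a zinc finger gene, rose from 1380.4 and 1408 to 4299.6 and 4439, and Usp29 beside it from 8.82 and 22.0 to 28.6 and 41.2, at least 1.24-fold. The call of Usp29 was lost under several settings. In the Snrpn-Ndn cluster, Ndn and Peg12 rose: Ndn, a MAGE family gene, from 356 and 345 to 1059 and 1043, and Peg12, a gene of the GSK3-binding FRAT family, from 20.3 and 20.4 to 193 and 178, at least 6.59-fold. Nnat rose from 179 and 189 to 2226 and 2051, or 11.6-fold, while Blcap, the gene in which Nnat lies, read 375 and 389 against 586 and 621 and was not called. Gnas rose from 1923 and 2053 to 6788 and 6644, but another of its probe sets by itself gave -0.16 (adjusted p 0.609).

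On amplified arrays EpiSCs against day 2 EpiLCs called 10 of 37 members, 9 higher and 1 lower, against 12.5% of all genes (8.61% higher and 3.86% lower). The 9 that rose were Asb4, Igf2, Plagl1, Sgce, Cdkn1c, Grb10, Peg3, Gnas and Impact, and Phlda2 fell. Among the 36 members tested on both kinds of array, 9 were called on both, all with the same sign. Nnat, at 371 and 188 in EpiLCs and 2187 and 1260 in EpiSCs, differed by 2.65 with an adjusted p of 0.062, and of 0.00327 with the replicate block, which also called Magel2 (adjusted p 0.0453) and Inpp5f (adjusted p 0.0372). The 2 amplified EpiSC arrays stood apart from each other, for example at 2828 and 13131 for Meg3 and at 124 and 794 for Ppp1r9a. Without EpiSC replicate 1 more members were called, and so were more of all genes tested.

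Against the epiblast of the embryo, amplified EpiSCs had 10 members higher and none lower, against 8.97% and 2.71% of all genes and 11.7% called. Plagl1 read 40.1 and 28.6 in epiblast and 1238 and 2997 in EpiSCs, and Sgce 37.0 and 27.9 against 448 and 594, a difference of 4.01 ± 0.27. Asb4 read 40.6 and 40.04 against 476 and 819, Cdkn1c 266 and 229 against 2628 and 2483, and Igf2 240.4 and 187 against 2278 and 1633. Peg3, Grb10, Impact, Nap1l5 and Slc22a18 were the other 5. This comparison shares its EpiSC arrays with that against EpiLCs. Without EpiSC replicate 1 more members and more of all genes tested were called here too. With the replicate block Nnat was called too (2.05, adjusted p 0.0117).

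Markers of fibroblasts moved with these members. Of 17 measured fibroblast markers 15 rose in EpiSCs on unamplified arrays, with Col3a1 at 10.02 and 13.4 in EpiLCs and 1168 and 1316 in EpiSCs. The summed intensity of the 17 was 2645 and 2566 in day 2 EpiLCs and 17470.0 and 17710.0 in EpiSCs, and on amplified arrays it was 1113 and 969 in EpiLCs, 873 and 743 in epiblast, and 8885 and 5294 in EpiSCs. All 17 markers lay above the filter level in EpiSCs. Of 8 tested trophoblast markers Plac1 and Krt7 rose in EpiSCs against EpiLCs on both kinds of array and Eomes on amplified arrays, and Plac1 and Krt7 were higher than in epiblast. Igf2, Grb10, Cdkn1c, Plagl1 and Dlk1 are among the imprinted genes that mesenchymal cells are known to express, and the part of any of these markers in the EpiSC results was not tested. Dlk1 itself, a Notch-ligand relative, read 24.1 and 21.5 in EpiLCs and 30.8 and 21.6 in EpiSCs.

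**Figure D3:**
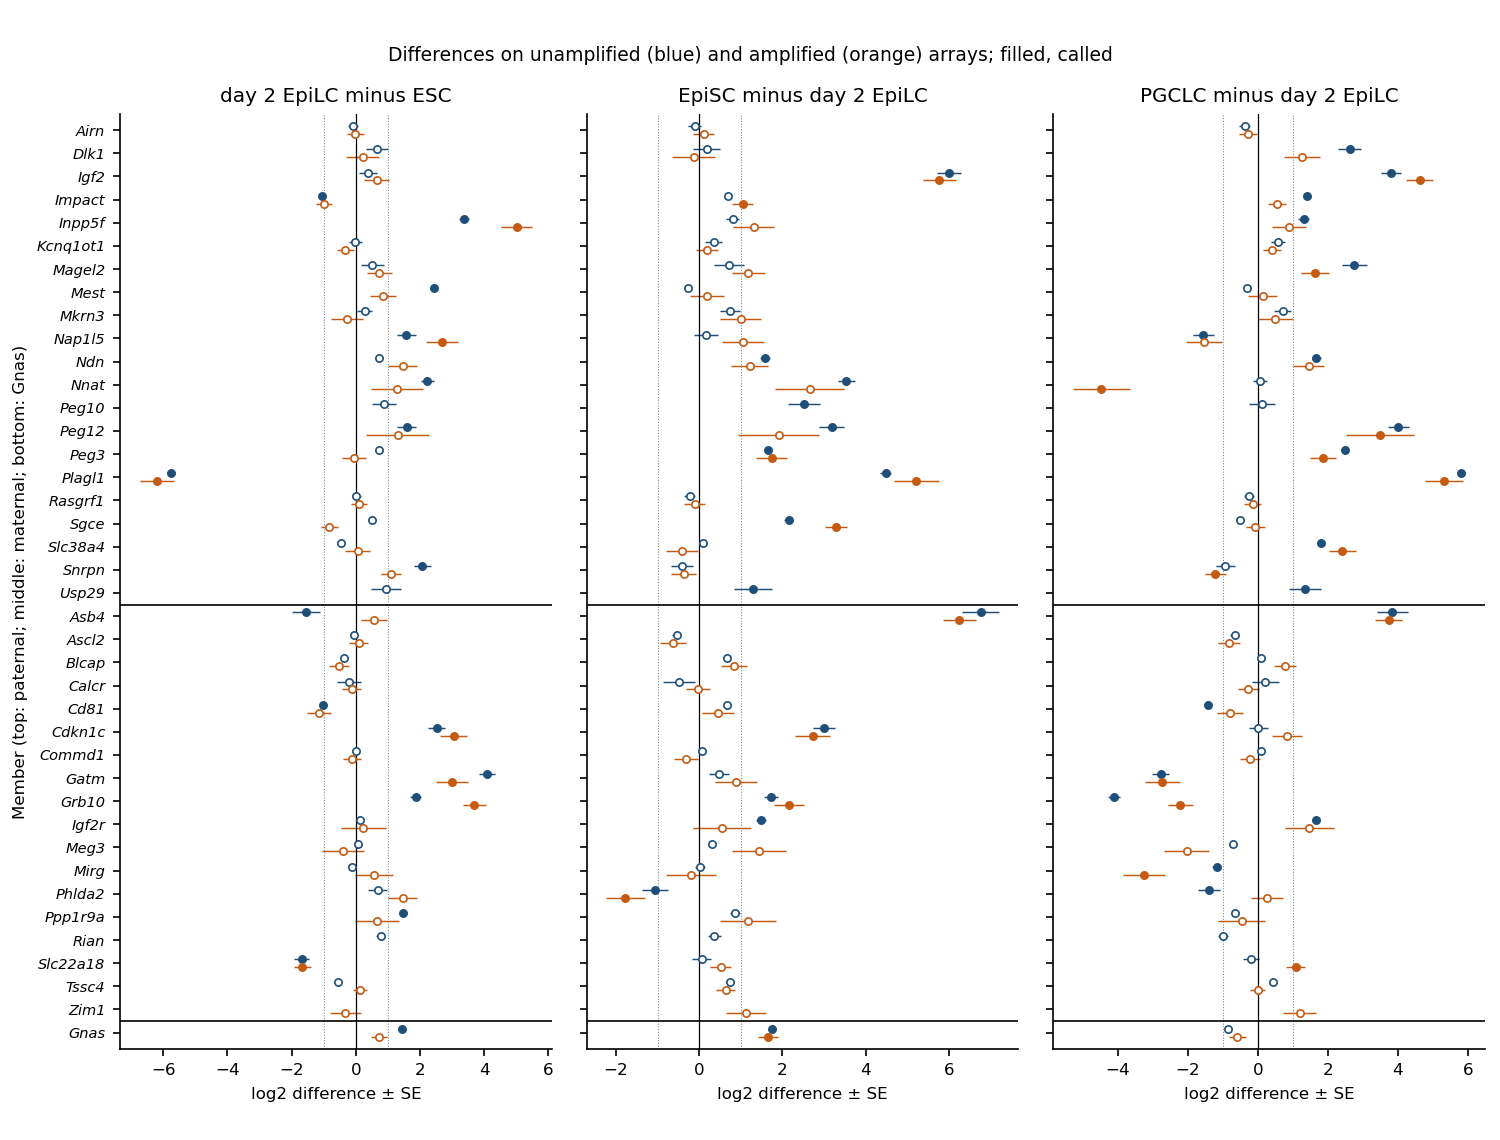
Log2 difference ± standard error of each tested member in 3 comparisons, on unamplified (blue) and amplified (orange) arrays (filled points are called; dotted lines mark -1 and 1). In EpiSCs minus day 2 EpiLCs the called points lie to the right except Phlda2, and in PGCLCs minus day 2 EpiLCs Grb10, Gatm and Mirg lie to the left on both kinds of array while Nnat does so on amplified arrays alone.

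PGCLCs are induced from day 2 EpiLCs, and this step called the largest number of members on unamplified arrays. Of 39 members 19 were called, against 20.6% of all genes: 13 were higher, against 8.78%, and 6 lower, against 11.9%. The median difference was 0.08 for members and -0.09 for all genes. Of the paternally expressed members 11 of 21 were higher and 1 was lower, with a median of 1.31, whereas of 17 maternally expressed members 2 were higher and 5 lower with a median of -0.64. The difference between the parental classes was not tested.

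Plagl1 rose 56.0-fold, from 71.4 and 88.0 in EpiLCs to 3828 and 5103 in PGCLCs (5.80 ± 0.13, limma adjusted p 1.72e-10), and its 2 probe sets gave 5.80 and 5.83. On amplified arrays the same probe sets gave 5.32 and 0.21 for this step and -6.19 and -0.81 from ESCs to EpiLCs, with 1 of 2 called in each. The ESC arrays of Plagl1, at 4303 and 4277, lay between the PGCLC arrays. Igf2 read 40.2 and 47.0 in EpiLCs and 409 and 905 in PGCLCs, 15.1-fold higher. The PGCLC arrays of Igf2 lay further apart than those of the other unamplified groups. Its receptor gene Igf2r rose from 306 and 314 to 906 and 1044, and Dlk1 from 24.1 and 21.5 to 119 and 168, at least 5.10-fold. Grb10 fell from 1902 and 1827 to 83.6 and 139.6, a 16.7-fold fall (-4.11 ± 0.17). Grb10 had the largest fall of the members in unamplified PGCLCs, where 2 of its 3 probe sets were called lower. Cdkn1c was not called, at 325 and 299 against 462 and 216, and Phlda2 fell from 1588 and 1558 to 370 and 970, with PGCLC arrays far apart. The call of Phlda2 was lost without PGCLC replicate 1 (-0.70) and with only the groups compared (adjusted p 0.0549).

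Paternally expressed genes of the Peg3 domain and the Snrpn-Ndn cluster rose. Peg3 rose from 1380.4 and 1408 to 8252 and 7357, by 2.48 ± 0.07, and its 3 probe sets gave 2.48 to 2.81. In the Snrpn-Ndn cluster Peg12 rose from 20.3 and 20.4 to 287 and 375, at least 11.8-fold, Magel2 from 24.2 and 26.4 to 185 and 157, at least 6.09-fold, and Ndn from 356 and 345 to 987 and 1263. All 6 probe sets of Ndn were called higher, with differences of 1.5 to 1.78. Snrpn of the same cluster was not called, at 198 and 183 against 145 and 69.6, nor was Mkrn3, at 78.1 and 70.6 against 120.3 and 123.

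Other increases came from genes of unrelated function. Asb4 read 6.99 and 2.30 in EpiLCs and 81.9 and 73.3 in PGCLCs, at least 2.76-fold higher. Slc38a4, an amino acid transporter gene active in the placenta, read 601 and 662 against 2225 and 2198, by 1.81 ± 0.07. Impact read 445 and 474 against 1177 and 1261, and Inpp5f 204 and 221 against 484 and 573. For both Impact and Inpp5f another probe set by itself gave -0.16. Usp29 read 8.82 and 22.0 against 28.7 and 44.3.

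The decreases were mostly of maternally expressed genes. Gatm read 122 and 159 in EpiLCs and 26.0 and 16.1 in PGCLCs, at least 5.01-fold lower. Cd81 read 2894 and 2797 against 952 and 1194. Nap1l5, the only paternally expressed member that fell, read 56.0 and 38.5 against 17.7 and 14.2. Of the noncoding RNAs of the Dlk1-Meg3 cluster, Mirg fell by 1.17 ± 0.12, from 222 and 262 to 112 and 103. Meg3 read 2409 and 2499 against 1635 and 1403, and Rian 1627 and 1542 against 977 and 654, both lower on each array without passing the fold threshold. Of the other probe sets, 1 of 3 for Rian (-1.40) and 1 of 11 for Meg3 (-1.05) were called lower. Of this cluster, the maternally expressed Mirg fell while the paternally expressed Dlk1 rose. The call of Mirg rested on 1 of 2 probe sets (-1.17 and -0.71) and was lost with their mean (-0.94). Dlk1 was not called in this step on amplified arrays. Markers of other cells moved in PGCLCs too: 8 of 17 fibroblast markers rose and 3 fell, with sums of 3370.0 and 3532 against 2645 and 2566 in EpiLCs, and 4 of 11 endothelial and blood markers rose. Of 8 tested trophoblast markers Cdx2 and Plac1 rose, and Plac1 rose on amplified arrays too. Their part in the PGCLC results was not tested.

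On amplified arrays the same step called 13 of 37 members, 8 higher and 5 lower, against 12.7% of all genes (6.47% higher and 6.25% lower). By parental class, 6 paternally expressed members were higher and 2 lower, with a median of 0.55, and 2 maternally expressed members were higher and 3 lower, with a median of -0.23. Of the 36 members tested on both kinds of array 10 were called on both with the same sign: Plagl1, Igf2, Asb4, Peg12, Slc38a4, Peg3 and Magel2 rose, and Grb10, Gatm and Mirg fell. The amplified calls of Peg12, Peg3, Magel2 and Mirg were each lost in some fit without 1 array. That of Grb10 rested on 1 of 2 probe sets (-2.22 and -0.02) and was lost with their mean (-0.77). The amplified call of Gatm was lost with the higher floor (-0.36). Igf2 read 33.6 and 37.2 in EpiLCs and 967 and 783 in PGCLCs, Slc38a4 263 and 373 against 1465 and 1888, and Mirg 393 and 283 against 48.1 and 25.8. Nnat fell from 371 and 188 to 14.6 and 9.82, at least 11.6-fold, whereas on unamplified arrays it read 179 and 189 against 150.1 and 243 and was not called. Slc22a18 rose from 23.6 and 31.0 to 63.5 and 51.4 and Snrpn fell from 356 and 475 to 187 and 169 on amplified arrays only. On unamplified arrays Slc22a18 went the other way, with its 2 probe sets at -1.40 and -0.18 and 1 of them called lower. Phlda2, called lower on unamplified arrays, read 2260 and 1850.4 against 2594 and 2339 here. With the replicate block Ndn (adjusted p 0.0411) and Igf2r (adjusted p 0.00275) were called too. Fewer members and fewer of all genes tested were called without PGCLC replicate 2 or without EpiLC replicate 1.

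The 18 measured genes of a list of imprint-control factors give the setting of this step. These are DNA methyltransferases, their cofactors and proteins that protect or remove methylation. On unamplified arrays 5 of the 18 fell in PGCLCs and 1 rose. Dnmt3b, a de novo methyltransferase, read 9866 and 9442 in EpiLCs and 237 and 105 in PGCLCs, and Dnmt3a read 3124 and 2918 against 118 and 83.6. Zfp57 read 78.0 and 83.0 against 16.4 and 9.39, and Dnmt3l and Uhrf1 were the others that fell. Dppa3, whose product protects the maternal genome in the early embryo, rose from 246 and 284 to 4757 and 4276. From ESCs to day 2 EpiLCs Dnmt3a and Dnmt3b had risen, and Zfp57 had fallen from 272 and 258. In EpiSCs against EpiLCs on unamplified arrays 7 of the 18 fell and none rose. On amplified arrays 4 of the 18 fell in PGCLCs and 1, Dppa3, rose, while 3 fell in EpiSCs. Zfp57 was not called on amplified arrays in PGCLCs or EpiSCs against EpiLCs, nor from ESCs to day 2 EpiLCs. The link between these factors and the imprinted genes was not tested.

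Day 2 EpiLCs and epiblast differed in few members. Of 37 members 3 were called, all lower in EpiLCs, against 0.961% of all genes called and 0.308% lower. Igf2 read 240.4 and 187 in epiblast and 33.6 and 37.2 in EpiLCs, a 6.04-fold difference (-2.59 ± 0.39, adjusted p 0.0156). Magel2 read 158 and 278 against 37.5 and 59.5, and Asb4 40.6 and 40.04 against 7.82 and 8.62. None of the 3 calls was made in a fit that left out any single array of either group. Visceral endoderm markers were higher in the epiblast arrays: of 13, Apoa1 (612 and 93.8 against 4.16 and 3.52), Cubn and Dab2 fell in EpiLCs, and the sum of the 13 was 4120.0 and 1916 in epiblast and 1051 and 1712 in EpiLCs. Igf2 is known to be expressed in extraembryonic tissue, and the part of these markers was not tested.

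PGCs of embryonic day 9.5 were set against epiblast as the embryonic counterpart of the germ cell step. Of 37 members 12 were called, against 10.5% of all genes, with 10 higher (6.11%) and 2 lower (4.36%). Of the paternally expressed members 7 of 19 rose and 1 fell, and of the maternally expressed members 3 of 17 rose and 1 fell. Plagl1 read 40.1 and 28.6 in epiblast and 1184 and 1025 in PGCs, a difference of 5.02 ± 0.54. Peg3 read 816 and 867 against 3377 and 4381, Peg12 22.9 and 3.49 against 332 and 152, and Slc38a4 209.9 and 218 against 770.2 and 848. These 4 paternally expressed genes rose in PGCLCs too. The PGC calls of Peg12 and Slc38a4 were each lost in some fit without 1 array. That of Peg3 rested on 1 of 3 probe sets (1.49 to 2.19) and was lost with the mean of its probe sets (1.1). That of Plagl1 rested on 1 of 2 probe sets (1.72 and 5.02). Igf2 read 240.4 and 187 against 1492 and 600.0, and Dlk1 13.02 and 10.3 against 82.2 and 24.3, with PGC replicate 1 the higher in both.

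Among maternally expressed members, Phlda2 rose most in PGCs, from 553 and 506 to 3856 and 5410, 8.76-fold. Slc22a18, its neighbour in the Kcnq1ot1 cluster, rose from 13.9 and 11.6 to 77.8 and 84.9, at least 3.38-fold. Cdkn1c of the same cluster read 266 and 229 against 771 and 271 and was not called. Asb4 read 40.6 and 40.04 against 211 and 107. Sgce, paternally expressed, rose from 37.0 and 27.9 to 94.9 and 75.5. Gatm fell from 25.1 and 30.9 to 1 and 1.73, at least 1.17-fold, and Snrpn from 586 and 522 to 228 and 221. The call of Gatm was lost with the higher floor (-0.13), and that of Snrpn in each fit without an array of either group. The calls of Asb4 and Sgce were each lost in some fit without 1 array. With the replicate block Mirg (-1.77, adjusted p 0.00958), Igf2r (1.44, adjusted p 0.0036) and Cd81 (-1.26, adjusted p 0.0169) were called too.

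Markers of other embryonic cells moved in the PGC arrays. The sum of 11 endothelial and blood markers was 405 and 357 in epiblast and 11560.0 and 4861 in PGCs, of which embryonic globin Hba-x made up 8258 and 3346. Of the 11, Hba-x, Pecam1, Hbb-bh1 and Emcn rose, while Hbb-y and Flt1 fell. The sum of 17 fibroblast markers was 873 and 743 in epiblast and 3300.0 and 1460.0 in PGCs. PGC replicate 1 was the higher array for both sums. Of the 10 members that rose it was the higher for Igf2, Plagl1, Dlk1, Peg12, Asb4 and Sgce and the lower for Peg3, Phlda2, Slc38a4 and Slc22a18. Fewer members and fewer of all genes tested were called without PGC replicate 1 or without epiblast replicate 2. The part of these cell markers in the PGC results was not tested.

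PGCLCs and PGCs, compared directly, differed in 2 of 37 members, both lower in PGCLCs, against 2.9% of all genes called, 1.56% higher and 1.33% lower. Nnat read 14.6 and 9.82 in PGCLCs and 1115 and 167 in PGCs, at least 26.7-fold lower (-5.17 ± 0.82, adjusted p 0.011). Grb10 read 243 and 262 against 1309 and 731, a difference of -1.95 ± 0.36 with an adjusted p of 0.0196. Neither gene was called without PGCLC replicate 1 or without PGCLC replicate 2, and Grb10 was not called without PGC replicate 1 (-1.53) or with the mean of its probe sets (-0.75, adjusted p 0.193). Of 17 fibroblast markers 5 were lower in PGCLCs and none higher, and of 11 endothelial and blood markers 6 were higher (Hbb-y, Emcn, Cd34, Tek, Esam and Flt1) and 2 lower (Hba-x and Hbb-bh1). Their part in this result was not tested. Plagl1 at 1530.0 and 2797 against 1184 and 1025, Igf2 at 967 and 783 against 1492 and 600.0, and Peg3 at 3794 and 5092 against 3377 and 4381 were not called.

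Whether the germ cell step differed between culture (PGCLCs minus day 2 EpiLCs) and embryo (PGCs minus epiblast) was tested as an interaction on amplified arrays. It called 0 of 37 members with limma, against 0.513% of all genes (0.192% higher and 0.32% lower), and 8 members had an unadjusted p under 0.05. The largest differences were -4.57 ± 1.16 for Nnat (adjusted p 0.164), -2.84 ± 0.65 for Phlda2 (0.107), 2.46 ± 0.55 for Igf2 (0.0996) and -2.23 ± 0.50 for Grb10 (0.103). With the replicate block Nnat (adjusted p 0.0139) and Igf2 (adjusted p 0.0369) were called. That limma fit called 257 of all genes, against 80 in the main fit. Igf2 had been lower in EpiLCs than in epiblast before the step, at 33.6 and 37.2 against 240.4 and 187, and its PGCLC and PGC arrays overlapped after it.

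**Figure D4:**
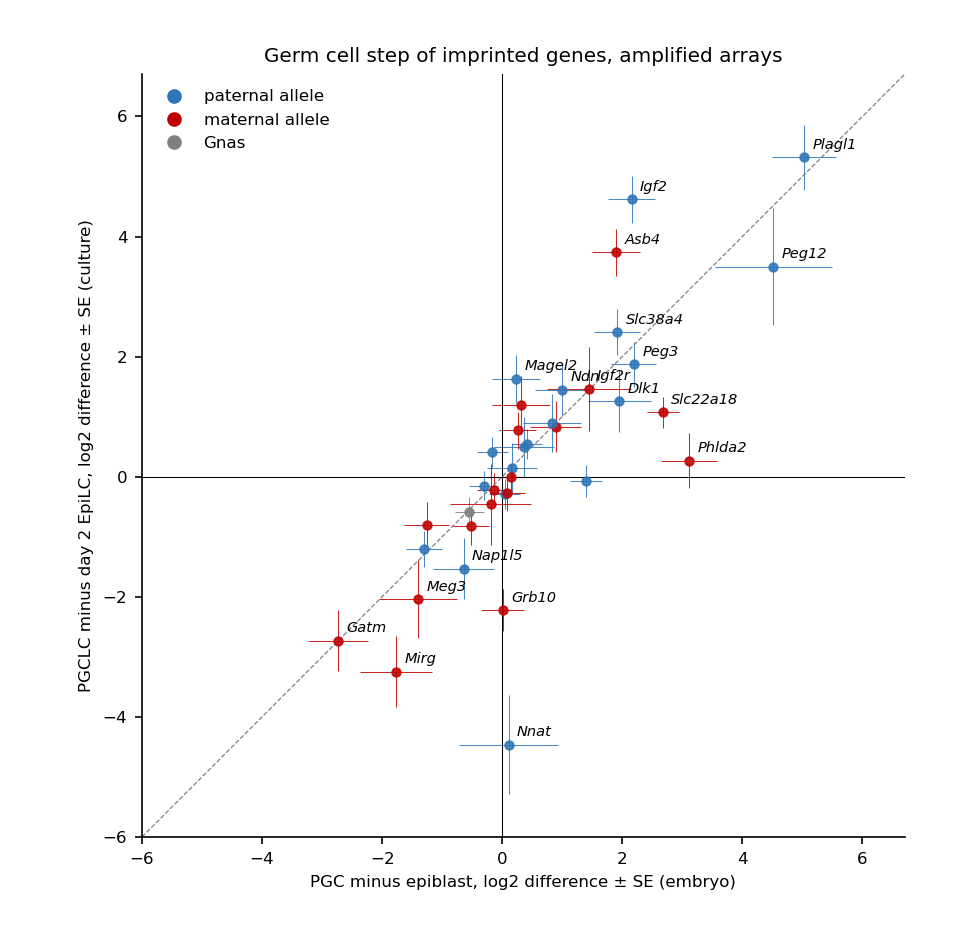
Log2 difference ± standard error of 37 members on amplified arrays in the embryo (PGCs minus epiblast, horizontal) and in culture (PGCLCs minus day 2 EpiLCs, vertical), coloured by the expressed allele (dashed line, equal differences). Plagl1 and Peg12 lie high on both axes, Gatm low on both, and Nnat, Grb10 and Phlda2 lie far below the dashed line.

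Through their brightest probe sets 11 members were called in no comparison, although other probe sets of some of them were called. Airn and Kcnq1ot1, the paternally expressed noncoding RNAs that silence the Igf2r and Cdkn1c clusters, were among them. The brightest probe set of Airn lay between 178 and 392 on all arrays, but the other was called higher in EpiSCs than in EpiLCs on unamplified arrays, with a difference of 2.01. Of 3 probe sets of Kcnq1ot1 on unamplified arrays, 2 were called higher in EpiSCs and 2 in PGCLCs than in day 2 EpiLCs, with differences up to 2.17 and 2.27. In the same set 1 was called lower in day 2 EpiLCs than in ESCs (-2.0) and 1 lower at day 3 than at day 2 (-1.82). Rasgrf1, a Ras exchange factor gene, lay between 126 and 207, and Commd1, a copper homeostasis gene, between 666 and 1295. Ascl2, a trophoblast transcription factor gene, was not called by its brightest probe set, but 2 of its 3 probe sets were called lower in PGCLCs than in EpiLCs, down to -3.66 on unamplified and -2.13 on amplified arrays, and 2 of 3 lower in EpiSCs than in EpiLCs, down to -1.64 and -2.04. Of 3, 2 were also called lower in PGCs than in epiblast, down to -1.83, and 1 lower in EpiSCs than in epiblast. Meg3, Rian, Blcap, Calcr, Tssc4 and Zim1 were the rest of the 11.

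Of the 40 members 24 had several probe sets, up to 11 for Meg3, and no member had probe sets called in opposite directions in a comparison. The brightest probe set of Rian read 654 to 2143 on unamplified arrays and at most 33.7 on amplified arrays. A list of 29 further imprinted genes, of which 21 were tested on unamplified arrays, had 8 higher and 1 lower in EpiSCs against EpiLCs. Over all genes 12.4% were higher and 6.44% lower. In PGCLCs against EpiLCs 3 of the list were higher and 4 lower, against 8.78% and 11.9% of all genes. Dcn, 1 of the 8 higher in EpiSCs, is also among the fibroblast markers. Osbpl5, Tfpi2 and Pon2 were among those higher in EpiSCs on both kinds of array.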

How the data were processed

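RNA was measured on Affymetrix mouse arrays. The authors deposited 1 linear intensity per probe set and array for 45101 probe sets; no source used here names the software or scaling behind these intensity values, and they were used as deposited. Each gene was taken as its brightest probe set over 24 arrays. Values were floored at 4.2 (the 10th percentile), and genes with at least 2 of 12 arrays above the 40th percentile of their set were tested: 14934 unamplified and 15608 amplified. Amplified and unamplified arrays were fitted apart with limma 3.58.1 in R 4.3.3 (1 mean per group, intensity trend, 6 residual degrees of freedom), with Benjamini-Hochberg adjustment over all genes. The fit was tested on simulated data. The number of arrays limits the precision: an exact permutation of 2 against 2 arrays cannot go below p = 0.33. Members and lists were chosen with earlier results of these data known. Members called without overlap between arrays are given by array, largest differences first, and others by range or count.

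Replicate numbers pair the amplified arrays: residuals of same-numbered arrays correlated above 0.1 in 15 of 15 pairs of groups (median 0.37), and these numbers run parallel to a code within the names of the arrays. On unamplified arrays such a correlation was found in 3 of 15. The pairing is taken from the data and that code, and the labels state none. The code is not balanced over the unamplified groups. All of them share a code on an array, but the other array of EpiSCs and PGCLCs has a code absent from ESCs and EpiLCs. The code is thus partly mixed with these comparisons. With it as a block, PGCLCs minus day 2 EpiLCs called 21 members (13 higher, 8 lower), against 19 (13 and 6). EpiSCs minus day 2 EpiLCs called 14, against 15. Alternatives were other floors, centring, quantile normalization, no filter, probe-set means, fits of the compared groups alone, blocks, and fits without each array.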

Additional observations from a re-analysis of the deposited data

Results flagged for a closer look

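Day 1 EpiLCs enter no comparison above, and Peg3 was high in them: it read 2911 and 3022, with a mean of 2970.0, against 857 and 827 in ESCs and 1380.4 and 1408 in day 2 EpiLCs. Both day 1 arrays lay above all arrays of these groups and of day 3, at 952 and 1046. This difference was not tested.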

How the results depend on the processing

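In the fits that left out 1 array, the count of called members ranged from 15 to 17 of a reported 16 for day 2 EpiLCs minus ESCs, 4 to 5 (7) for day 3 minus day 2, 13 to 14 (15) for EpiSCs and 18 to 20 (19) for PGCLCs minus day 2 EpiLCs on unamplified arrays. On amplified arrays it ranged from 6 to 7 (7), 7 to 16 (10) and 6 to 10 (13) for the same 3 steps, 0 to 0 (3) for EpiLCs minus epiblast, 9 to 17 (10) for EpiSCs minus epiblast, 4 to 11 (12) for PGCs minus epiblast, 0 to 2 (2) for PGCLCs minus PGCs, and 0 to 1 (0) for the interaction. The day 3 count fell to 4 with the higher floor and to 4 with probe-set means, and to 4 without day 2 EpiLC replicate 1. The fits without EpiSC replicate 1 gave the highest counts of both amplified EpiSC comparisons and also called more of all genes. With only the groups compared, the counts were 6 for EpiSCs minus EpiLCs and 6 for EpiSCs minus epiblast (amplified). They were 0 for EpiLCs minus epiblast, 0 for PGCLCs minus PGCs and 1 for the interaction. Over all genes these 5 fits called 464, 459, 11, 0 and 72, against 1947, 1823, 150, 452 and 80 in the main fits. The cause was not tested. EpiLCs minus epiblast gave 1 without the filter. PGCLCs minus PGCs gave 1 with the higher floor and 1 with probe-set means. The interaction gave 1 with the higher floor, 2 with the replicate block and 2 without both EpiSC arrays, an alternative chosen after seeing the data. The block gained 14 calls and lost 0 over all amplified comparisons. In each of them it also called more of all genes tested, for example 1877 against 1329 in EpiLCs minus ESCs and 257 against 80 in the interaction. Single probe sets, also tried after seeing the data, turned the direction of Impact (0.24 in EpiLCs minus ESCs, -0.16 in PGCLCs minus EpiLCs, unamplified), Inpp5f (-0.16 in PGCLCs minus EpiLCs, unamplified), Gnas (-0.16 unamplified and -1.0 amplified in EpiSCs minus EpiLCs) and Grb10 (-0.12 in EpiLCs minus ESCs, amplified); the cause was not tested. No call of a member turned direction under another setting run. Signals near the filter level limit Usp29, Peg10, Asb4, Gatm and Nap1l5.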
